A study of Mus musculus with 6 samples.

Results

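The 9 genes described here encode GTPases that interferon-gamma induces, the guanylate-binding proteins Gbp2, Gbp3, Gbp4 and Gbp6 and the immunity-related GTPases Irgm1, Irgm2, Igtp, Iigp1 and Ifi47. They were chosen by name, as every non-control spot of the arrays that carries one of these gene names, which gave 21 spots of 12 probes. All 9 passed the filter on dim probes and stand among 21883 genes tested. RNA came from cardiomyocyte fractions, isolated by retrograde perfusion, of adult mice that had all undergone transverse aortic constriction (TAC), an operation that narrows the aorta and loads the left ventricle, 6 weeks before. Of the 6 one-colour Agilent arrays, 3 held RNA of H19 knockout mice and 3 RNA of their wild-type littermates. H19 is a long non-coding RNA transcribed from an imprinted locus, and the comparison asks how its loss alters the transcripts of the loaded heart. The part of H19 that the knockout allele lacks and the number of mice behind an array are not given in the labels, so a p-value here reflects only how these samples spread. Unoperated hearts were not analysed here.

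Interferon-gamma binds a receptor made of Ifngr1 and Ifngr2, which signals through the kinases Jak1 and Jak2 to promoters that carry gamma-activated sites (GAS elements), among them that of Irf1. Irf1 and the complex that contains Irf9 bind interferon-stimulated response elements (ISRE). The GTPases are among the most strongly induced products of this pathway in mouse cells. Guanylate-binding proteins and the effector immunity-related GTPases, such as Iigp1 and Ifi47, settle on vacuoles that hold intracellular parasites and bacteria and break them open. Irgm1, Irgm2 and Igtp are regulators that sit on the cell's own membranes and hold the effectors inactive there. The family is best known from macrophages and infected tissue, and most cell types of the heart can respond to interferon-gamma.

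Promoter sequences are shown first. The genes were listed as induced by interferon-gamma and several are neighbours of the same family, so the counts of response elements are descriptive and not independent of the choice. Promoter windows from 250 bases before to 50 bases after the annotated start (RefSeq, GRCm38.p6) were examined for 7 genes under their present names. No window was found for Gbp4. Iigp1 was left out before the search, so its promoter was not examined. The windows were searched on both strands for an ISRE core and for the GAS element, TTCNNNGAA. The ISRE core was taken as 2 copies of GAAA with any 2 bases between them. An ISRE core was present in 6 of the 7 genes, against 3.44% of all 32851 windows, and a GAS element in 3 of the 7, against 8.3% of all windows. The stretches below run from -120 to 20 around the start, 5′ to 3′ on the gene's strand, with matches to either motif in capitals. Gbp2, Gbp3 and Gbp7 lie on chromosome 3, plus strand, the stretches being chr3:142620543-142620682, chr3:142559924-142560063 and chr3:142530216-142530355. Irgm1 lies on chromosome 11, minus strand, at chr11:48871401-48871540, and Igtp and Irgm2 on its plus strand at chr11:58199436-58199575 and chr11:58214857-58214996.
Gbp2: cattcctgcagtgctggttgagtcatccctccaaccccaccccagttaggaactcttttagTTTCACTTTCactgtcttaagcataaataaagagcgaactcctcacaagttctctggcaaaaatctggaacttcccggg
Gbp3: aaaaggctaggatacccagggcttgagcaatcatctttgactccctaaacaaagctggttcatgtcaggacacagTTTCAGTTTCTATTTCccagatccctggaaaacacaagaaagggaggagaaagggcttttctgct
Gbp7: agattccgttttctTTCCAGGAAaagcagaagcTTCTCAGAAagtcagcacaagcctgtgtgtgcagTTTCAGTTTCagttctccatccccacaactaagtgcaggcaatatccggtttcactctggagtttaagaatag
Irgm1: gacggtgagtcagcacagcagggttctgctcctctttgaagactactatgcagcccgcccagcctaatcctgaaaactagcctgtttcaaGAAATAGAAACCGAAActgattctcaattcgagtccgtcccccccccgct
Igtp: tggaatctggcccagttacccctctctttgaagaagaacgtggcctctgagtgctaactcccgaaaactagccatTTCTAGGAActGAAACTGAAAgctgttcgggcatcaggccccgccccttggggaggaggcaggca
Irgm2: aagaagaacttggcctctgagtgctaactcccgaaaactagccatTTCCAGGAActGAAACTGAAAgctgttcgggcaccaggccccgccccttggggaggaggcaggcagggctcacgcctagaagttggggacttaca

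Gbp3 and Irgm1 each held 2 overlapping ISRE cores, starting at -45 and -39 in Gbp3 and at -30 and -24 in Irgm1. A second annotated start of Gbp3 had no match in its window, and neither motif was found in the window of Ifi47. In Igtp the GAS element started at -45 and the ISRE core at -34, and in Irgm2 they started at -75 and -64. The start of the core thus lay 11 bases after the start of the GAS element in both. Tgtp1 and Tgtp2, GTPases of the same family outside the 9, had that same spacing, with GAS elements at -88 and -81. This arrangement, looked for in all windows after it had been seen in these, occurred in 5 of 32851, and the fifth gene was Gm12185, also on chromosome 11. Igtp and Irgm2 are neighbours, and over 110 bases aligned at the ISRE core their windows were identical at 107, so they do not count as independent examples. The windows of Tgtp1, Tgtp2 and Gm12185 were not aligned. All 5 genes lie on chromosome 11, so they cannot be taken as 5 independent cases.

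**Figure D1:**
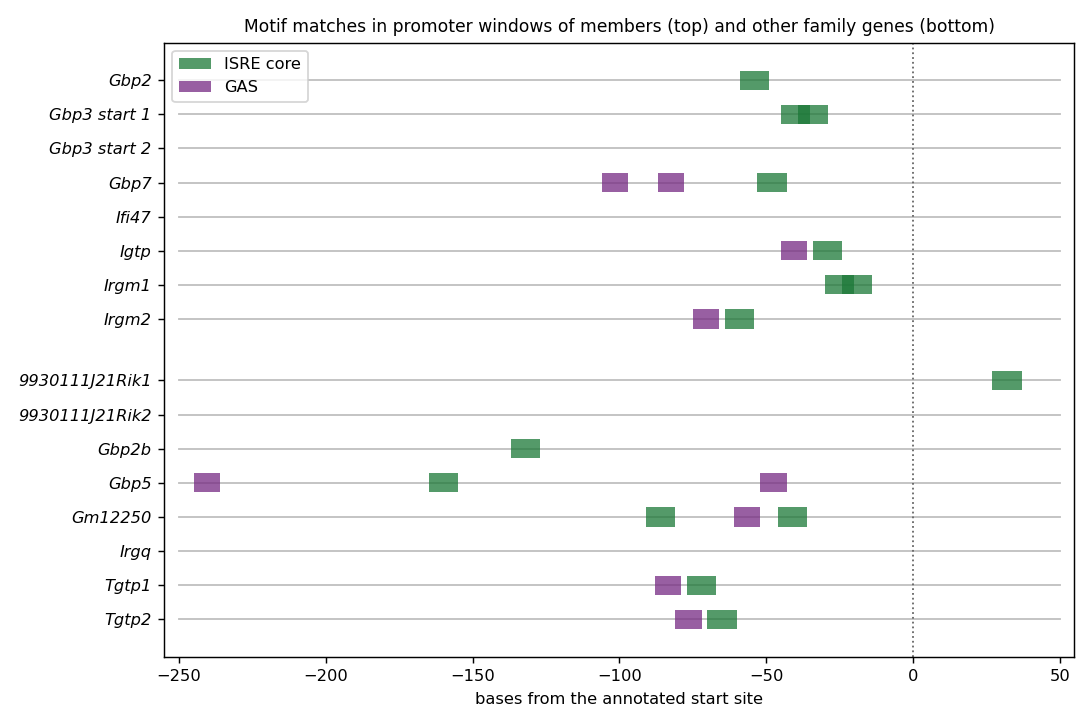
Matches to the ISRE core (green) and the GAS element (purple) by distance in bases from the annotated start site (dotted line) in the windows of the members (top rows) and of other family genes (bottom rows). Matches of the members start between -106 and -24, and the fixed spacing of 11 bases from start to start is seen in Igtp, Irgm2, Tgtp1 and Tgtp2.

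Between 48.8% and 58.6% of an array's spots were well above background and none was saturated. H19 was well above background on 0 of 3 knockout arrays and read 1.41, 0.46 and 0.53 on the wild-type arrays (log2 processed intensity minus that of the 75th percentile of the array, the scale of all levels below). Pearson correlations over genes ranged from 0.981 to 0.990 between pairs of arrays, within genotypes and across them. Replicate 1 of each genotype was on slide 1 and replicates 2 and 3 of each were on slide 2. The third wild-type replicate stood apart in the genes described here, not in its correlations, so values without it are also given for the 9 genes, for each list and for many of the other named genes.

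All 9 GTPases had a lower mean signal in H19 knockout than in wild-type fractions, by 0.54 (Gbp2) to 1.79 (Iigp1) on the log2 scale, but no difference passed the test. These are bulk fractions, in which fewer cells of a type and less RNA per cell cannot be told apart. The median of the 9 differences was -1.23, against -0.06 over all genes, and 63.7% of all genes had a difference below 0. None of the 9 was called at an adjusted p of 0.05 (limma, Benjamini-Hochberg over all genes), where 0.032% of all genes were. At an unadjusted p under 0.05, 3 of the 9 were lower in the knockout, against 6.94% of all genes. The 3 knockout arrays lay wholly below the 3 wild-type arrays for 5 of the 9, against 8.66% of all genes. On every one of the 9 genes wild-type replicate 3 was the highest of the 6 arrays, which held for 16.1% of all genes. Without that array the median of the 9 was -0.46, against -0.05 over all genes, and 8 of the 9 were below 0, against 58.5% of all genes. Within slides, 7 of the 9 were lower in the knockout on both slides, which held for 33.5% of all genes.

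Gbp3 read 0.64, 1.47 and 1.15 on the knockout arrays and 1.97, 2.0 and 2.87 on the wild-type arrays. The genotypes did not overlap, the highest knockout array lying below the lowest wild-type array, and knockout replicate 1 was the lowest of all. The difference was -1.19 (SE 0.32, 95% interval -1.95 to -0.44, 2.29-fold lower, adjusted p = 0.622, limma). It was -1.33 on slide 1 and -1.12 on slide 2. Gbp3 has a single probe, on chromosome 3 from 142236032 to 142236091 (mm9), in a cluster with Gbp2, Gbp5 and the probe named Gbp6.

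Gbp4, the member on chromosome 5 (probe 105544852 to 105544911, mm9), had the largest difference of the guanylate-binding proteins among the 9. It read 0.38, 1.22 and 1.07 in knockout and 2.17, 1.73 and 3.21 in wild type. Again the genotypes did not overlap, although the wild-type arrays spread over a wider range than those of Gbp3. The difference was -1.48 (SE 0.41, 2.80-fold lower, adjusted p = 0.622, limma), with -1.80 on slide 1 and -1.33 on slide 2.

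The spots named Gbp6 do not measure the gene that bears this name now. The transcript listed for the bright probe, on chromosome 3 from 142209379 to 142209438 (mm9), belongs to the gene now called Gbp7, whose promoter is shown above, while the present Gbp6 is on the array as Mpa2l. The probe read -1.86, -1.26 and -1.53 in knockout and -1.09, -1.08 and -0.11 in wild type. The genotypes did not overlap, knockout replicate 2 being the nearest to wild type. Its difference was -0.79 (SE 0.31, 1.73-fold lower, adjusted p = 0.628, limma), and a second probe of that name was well above background on 0 of 6 arrays.

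Gbp2 differed least of the 9. Its probe, on chromosome 3 from 142300719 to 142300778 (mm9), read 0.78, 1.56 and 1.29 in knockout and 1.55, 1.77 and 1.94 in wild type. Knockout replicate 2 just exceeded wild-type replicate 1, so the genotypes overlapped. The difference was -0.54 (SE 0.23, 1.46-fold lower, adjusted p = 0.631, limma).

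Of the effector immunity-related GTPases, Iigp1 had both the larger difference and the larger error. The brighter of its 2 probes read 1.13, 0.63 and 1.04 in knockout and 1.33, 1.78 and 5.06 in wild type. The genotypes did not overlap, but wild-type replicate 3 lay 3.28 above the next array, and wild-type replicates 1 and 2 lay close to the knockout arrays. The difference was -1.79 (SE 0.91, 95% interval -3.96 to 0.38, adjusted p = 0.664, limma), with -0.20 on slide 1 and -2.58 on slide 2. The second probe, which lies nearby on chromosome 18, gave -1.74.

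Ifi47 kept closer to the guanylate-binding proteins than to Iigp1. It read 0.85, 1.98 and 1.45 in knockout and 2.08, 1.75 and 2.66 in wild type. Knockout replicate 2 exceeded wild-type replicate 2, so the genotypes overlapped, and the highest array stood only 0.57 above the next. The difference was -0.73 (SE 0.35, adjusted p = 0.642, limma). Its probe lies on chromosome 11 from 48910402 to 48910461 (mm9).

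The 3 regulators shared the shape seen in Iigp1. Irgm1 read 1.15, 1.15 and 1.24 in knockout and 1.40, 1.49 and 4.35 in wild type, with a second probe that gave -1.10 where the first gave -1.23 (SE 0.75, adjusted p = 0.737, limma). The knockout arrays differed from one another by less than 0.10 and lay below all wild-type arrays, of which replicates 1 and 2 were less than 0.50 higher. Irgm1 is on chromosome 11, its brighter probe from 48679069 to 48679128 (mm9), near Ifi47.

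Irgm2, on chromosome 11 from 58036093 to 58036152 (mm9), read 2.36, 2.26 and 2.54 in knockout and 2.22, 2.75 and 6.01 in wild type. Wild-type replicate 1 was the lowest of the 6 arrays and replicate 3 the highest, so the genotypes overlapped. The difference was -1.27 (SE 0.92, adjusted p = 0.809, limma), with 0.15 on slide 1 and -1.98 on slide 2.

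Igtp, next to Irgm2 at 58020927 to 58020986, read 3.32, 2.99 and 3.12 in knockout and 2.79, 3.44 and 7.36 in wild type. Wild-type replicate 1 was again the lowest array and replicate 3 the highest. The difference was -1.39 (SE 1.10, adjusted p = 0.854, limma), with 0.53 on slide 1 and -2.35 on slide 2. Igtp is printed on the array in 10 spots, which makes its reading on each array the best repeated of the 9. The 10 spots read between 7700 and 9959 units of processed intensity on the knockout arrays, between 5004 and 10888 on wild-type replicates 1 and 2, and between 136529 and 161211 on wild-type replicate 3. The SD of the 10 log2 values on an array was 0.037 to 0.076, so the high reading of that replicate appeared at every one of its 10 spots.

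**Figure D2:**
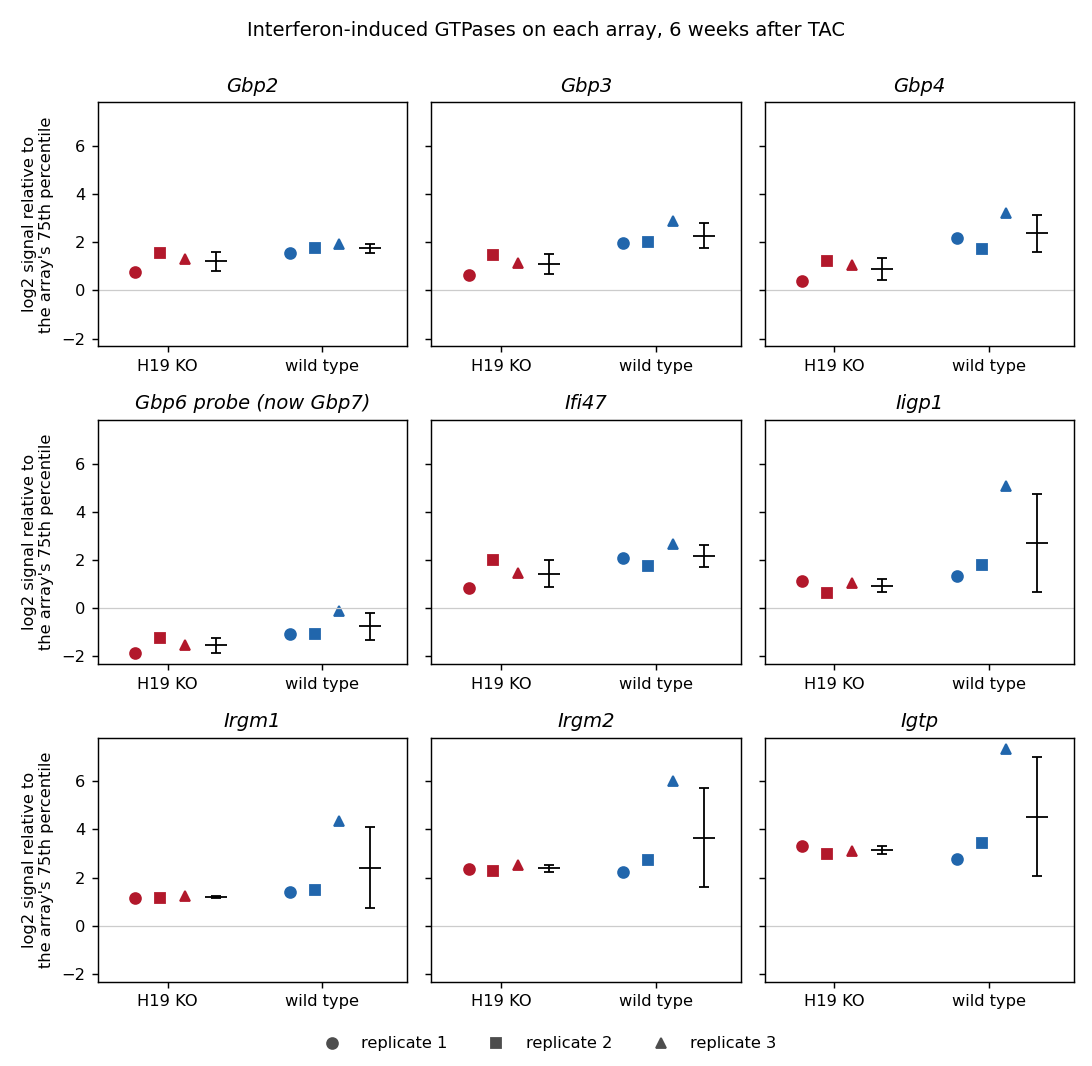
Level (y axis, log2, relative to the 75th percentile of each array) of each of the 9 GTPases on the 3 H19 knockout arrays (red, left) and the 3 wild-type arrays (blue, right) 6 weeks after TAC. Marker shapes give the replicate, and the black bar and whiskers the mean and SD of 3 arrays. Wild-type replicate 3 (triangle) is the highest array in every panel and reaches 7.36 in Igtp, whereas the knockout arrays of Irgm1 lie between 1.15 and 1.24.

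An exact two-sided permutation test of 3 against 3 arrays gave 0.1, the smallest p it can give, for Gbp3, Gbp4, the Gbp6 probe, Iigp1 and Irgm1. It gave 0.2 for Gbp2 and Ifi47, 0.4 for Irgm2 and 0.6 for Igtp. The order of the genes by this test thus differs from their order by size of difference, since Iigp1, Gbp4 and Igtp had the 3 largest differences.

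Without wild-type replicate 3, which leaves 2 wild-type arrays, the differences of the 9 genes ranged from -1.06 to 0.03. Gbp4 and Gbp3 had the largest differences that remained, at -1.06 (SE 0.30, adjusted p = 0.088, limma) and -0.90 (SE 0.26, adjusted p = 0.102, limma). Iigp1 was then at -0.62 (SE 0.24), Ifi47 at -0.49 (SE 0.34), the Gbp6 probe at -0.46 (SE 0.22) and Gbp2 at -0.45 (SE 0.26). The regulators were nearest 0, Irgm1 at -0.27 (SE 0.17), Irgm2 at -0.09 (SE 0.22) and Igtp at 0.03 (SE 0.25). No member was called (0.0457% of all genes were), 3 of the 9 were lower at an unadjusted p under 0.05, against 17.5% of all genes, and the arrays of 5 of the 9 did not overlap, against 24.3% of all genes. In each of these counts the direction was that of a lower signal in the knockout.

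**Figure D3:**
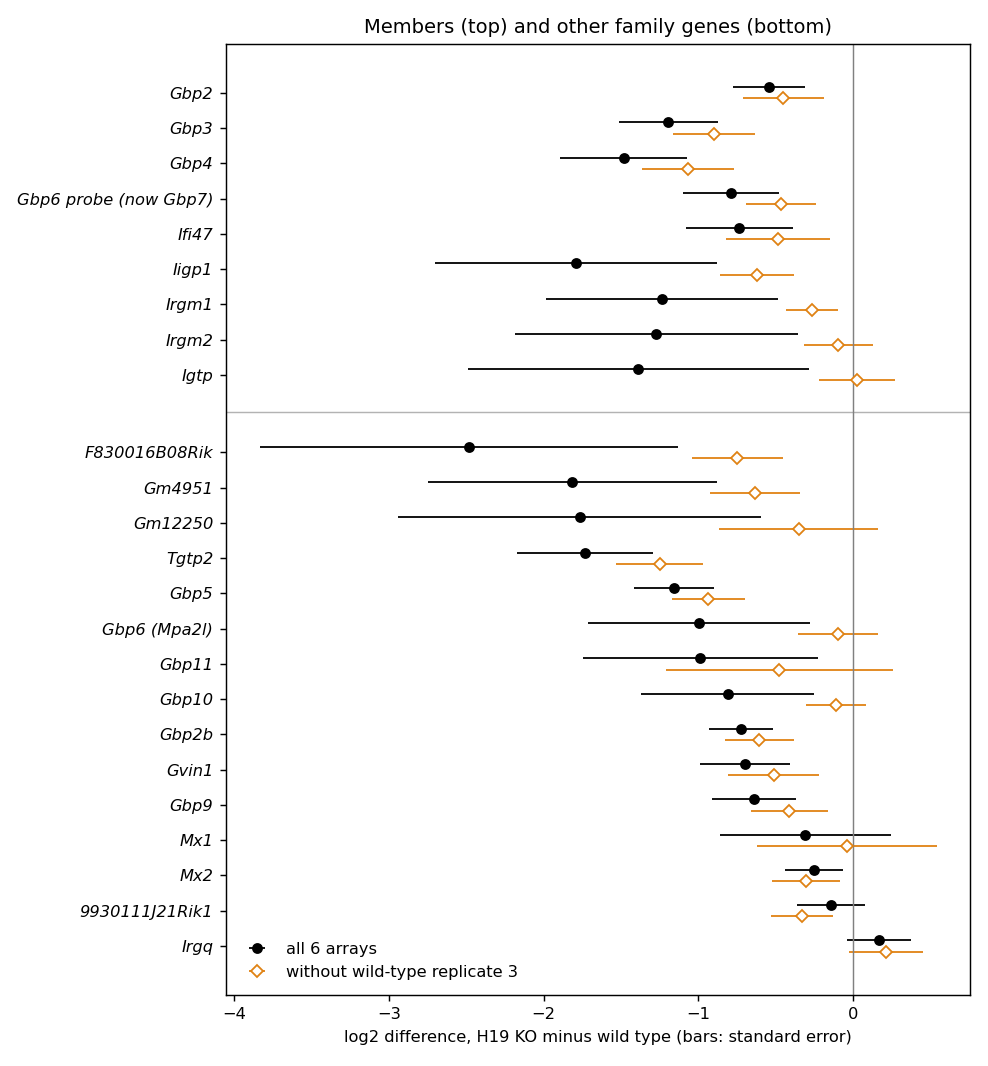
Log2 difference of H19 knockout minus wild type (x axis, bars give the standard error of the limma fit) for the 9 members (top) and 15 other family genes (bottom), with all 6 arrays (black circles) and without wild-type replicate 3 (orange diamonds). Igtp lies at -1.39 with all arrays and at 0.03 without that one, and Gbp3 at -1.19 and -0.90.

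The height of wild-type replicate 3 over the mean of the other wild-type arrays ranged from 0.28 in Gbp2 to 4.25 in Igtp. It was 3.53 in Irgm2, 3.51 in Iigp1 and 2.90 in Irgm1, against 1.26 in Gbp4, 0.97 for the Gbp6 probe, 0.89 in Gbp3 and 0.74 in Ifi47. Irgm1, Irgm2 and Igtp lie on chromosome 11 and Iigp1 on chromosome 18. Ifi47 also lies on chromosome 11, near Irgm1, and whether the divide follows the position of the genes was not tested. A single array over 2 log2 units above the next was rare, at 0.452% of all genes, and wild-type replicate 3 was that array in 0.096% of all genes (21 genes), which include Igtp, Iigp1, Irgm2 and Irgm1. Other arrays had 23 (knockout replicate 1), 5, 7, 33 (wild-type replicate 1) and 10 such genes. Beside the 4 members, the 21 genes held the family genes F830016B08Rik, Gm12250, Gm4951 and the present Gbp6, the pathway gene Nlrc5, and the chemokines Cxcl9, Ccl7 and Ccl8. Others among the 21 were BC023105, Vmn1r65, Gm13547, Gm4415, Gsdma and 3 probes without a gene name. This threshold and these lists of genes were chosen after the values had been seen.

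Other genes of both families had the same direction. Of 15 that passed the filter, 14 were lower in the knockout, against 63.7% of all genes, with a median of -0.81. Wild-type replicate 3 was the highest array for 12, against 16.1% of all genes. None was called, where 0.032% of all genes were. At an unadjusted p under 0.05, 4 were lower, against 6.94% of all genes. The knockout arrays lay wholly below the wild-type arrays for 6, against 8.66% of all genes. Without wild-type replicate 3 the median was -0.41. Gbp5, which assists inflammasome assembly in macrophages, read -1.59, -1.11 and -1.27 in knockout and -0.15, -0.63 and 0.28 in wild type. Its difference was -1.16 (SE 0.26, adjusted p = 0.622, limma) and -0.94 without that array, but a second Gbp5 probe, built on a clone sequence, gave -0.23.

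Tgtp2, a T-cell specific GTPase by its name, read 2.49, 3.38 and 3.1 in knockout and 4.16, 4.32 and 5.69 in wild type. The difference was -1.73 (SE 0.44, adjusted p = 0.622, limma) and -1.25 (adjusted p = 0.058) without wild-type replicate 3. The genotypes did not overlap in either case, but the probe matches transcripts of both Tgtp1 and Tgtp2, so the copies cannot be told apart. Gbp2b, named Gbp1 on the array, read 0.04, 0.64 and 0.42 in knockout and 0.95, 1.0 and 1.33 in wild type, a difference of -0.72 (SE 0.21), and -0.61 without that array. Gvin1, a giant GTPase, differed by -0.70 and Gbp9 by -0.64, and without that array by -0.51 and -0.41.

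F830016B08Rik, Gm4951 and Gm12250 had differences of -2.49, -1.81 and -1.77, which became -0.75, -0.63 and -0.35 without wild-type replicate 3. F830016B08Rik was well above background on 1 of 3 knockout and 2 of 3 wild-type arrays, so the size of its differences is uncertain. Much of the difference of the 3 genes rested on wild-type replicate 3 and a part remained without it, as in Iigp1 and Irgm1. The present Gbp6 gave -0.99 and Gbp10 -0.81, both within 0.11 of 0 without it, and the brightest probe of each lists transcripts of both genes. Gbp11 (-0.99), Mx1 (-0.31), Mx2 (-0.25) and 9930111J21Rik1 (-0.14) had differences of less than 1.5 times their errors, and without wild-type replicate 3 they stood at -0.48, -0.04, -0.31 and -0.33. Irgq, a distant relative in sequence, was the exception in direction at 0.17 (SE 0.21). Gbp8, Tgtp1, Irgc1 and 9930111J21Rik2 did not pass the filter.

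The receptor and the kinases that act before the GTPases had differences near 0. Ifng was well above background on 0 of 6 arrays and was not tested. Ifngr1 differed by 0.18 (SE 0.25), Ifngr2 by -0.14 (SE 0.18), Jak1 by 0.18 (SE 0.13) and Jak2 by -0.06 (SE 0.15). Of the 15 ligand, receptor and transducer genes that passed the filter, 7 were lower and 8 higher in the knockout, the median was 0.01 (0.03 without wild-type replicate 3) and none was called. Without that array Ifngr1 stood at 0.03 and Ifngr2 at -0.05.

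Irf1 and Irf9, transcription factors that interferons also induce, were lower in the knockout. Their differences were near those of the Gbp6 probe (-0.79) and Ifi47 (-0.73) and smaller than the median of the 9 GTPases (-1.23). Irf1 read 3.06, 3.95 and 3.37 in knockout and 4.06, 3.83 and 4.90 in wild type, a difference of -0.80 (SE 0.34, adjusted p = 0.628, limma). Irf9 read 2.13, 2.63 and 2.48 in knockout and 2.84, 2.76 and 4.07 in wild type, a difference of -0.81 (SE 0.37, adjusted p = 0.636, limma). The arrays of Irf1 overlapped and those of Irf9 did not, and without wild-type replicate 3 the differences were -0.48 and -0.39. Nlrc5, which drives class I antigen presentation genes, differed by -1.66 (SE 0.85) with arrays that overlapped, and by -0.71 (SE 0.49) without that array. Irf8 differed by 0.14 (SE 0.33), and the feedback inhibitors Socs1 and Socs3 by 0.44 (SE 0.46) and 0.46 (SE 0.26). Without wild-type replicate 3 these 3 stood at 0.36, 0.67 and 0.73. Ciita, the class II transactivator, stood high on knockout replicate 1 alone, at 0.64 against -3.73 to -2.39 on the other arrays.

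Of 25 targets of interferon-gamma that are not GTPases, 24 were lower, against 63.7% of all genes, with a median of -0.36. Without wild-type replicate 3, 18 of the 25 were lower, against 58.5% of all genes, and the median was -0.11. The immunoproteasome subunit Psmb9 differed by -1.10 (SE 0.45), the peptide transporter Tap1 by -1.23 (SE 0.54) and the chemokine Cxcl9 by -1.77 (SE 0.78). Cxcl9 was well above background on 2 of 3 knockout arrays and on 3 of 3 wild-type arrays. Cd274, the ligand of the T-cell inhibitory receptor PD-1, differed by -0.97 (SE 0.45), Psmb8 by -0.83 (SE 0.37) and the transcription factor Batf2 by -0.76 (SE 0.29). These 6 had arrays that did not overlap, with the knockout lower, which held for 8.66% of all genes, and none was called. Much of each difference rested on wild-type replicate 3, without which Psmb9 stood at -0.59, Tap1 at -0.57, Cxcl9 at -0.85, Cd274 at -0.43, Psmb8 at -0.47 and Batf2 at -0.49.

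Type I interferon response genes had a median of -0.26, 20 of 23 being lower, against 63.7% of all genes. The median was -0.19 without wild-type replicate 3, -0.07 with 14 of 23 lower without knockout replicate 1, -0.75 on slide 1 and -0.13 on slide 2. Wild-type replicate 3 was the highest array for 9 of the 23, among them Ifit1, Ifit2, Ifit3 and Rtp4, against 19 of the 25 other interferon-gamma targets and 16.1% of all genes. Averaged over that list, after each gene's mean over the 6 arrays was subtracted, wild-type replicate 3 stood at 0.04, against 1.94 for the 9 GTPases and 0.75 for the other interferon-gamma targets. That mean includes Xaf1 and Zbp1, whose readings on that replicate minus the mean of the other wild-type arrays were -1.96 and -1.02. Xaf1, named after its values were seen, had the largest difference of the list, at 1.19 (SE 0.54, adjusted p = 0.636, limma) and 0.54 without that array. Zbp1, a sensor of nucleic acids, read -3.43, -3.20 and -3.42 in knockout and -2.28, -2.25 and -3.29 in wild type. Ifit3 read 0.36, 1.03 and 1.08 in knockout and 1.39, 1.15 and 1.51 in wild type. The arrays of Zbp1 overlapped and those of Ifit3 did not. Rtp4 differed by -0.52, Irf7 by -0.50 and Ifi44 by -0.41.

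The autophagy proteins that steer these GTPases onto vacuoles had differences near 0. Of 10 genes of ATG8 conjugation 3 were lower, the median was 0.02, and the differences ranged from -0.18 (Gabarapl1) to 0.17 (Atg16l1). Their median was 0.08 without wild-type replicate 3, and -0.10 with 8 of 10 lower without knockout replicate 1. Scaling the arrays to their median probe in place of the 75th percentile moved the median of all genes to 0.36, and on that scale the medians of the other interferon-gamma targets and of the type I list were 0.07 and 0.16, below the median of all genes but above 0. The 9 GTPases all stayed below 0, with a median of -0.81.

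**Figure D4:**
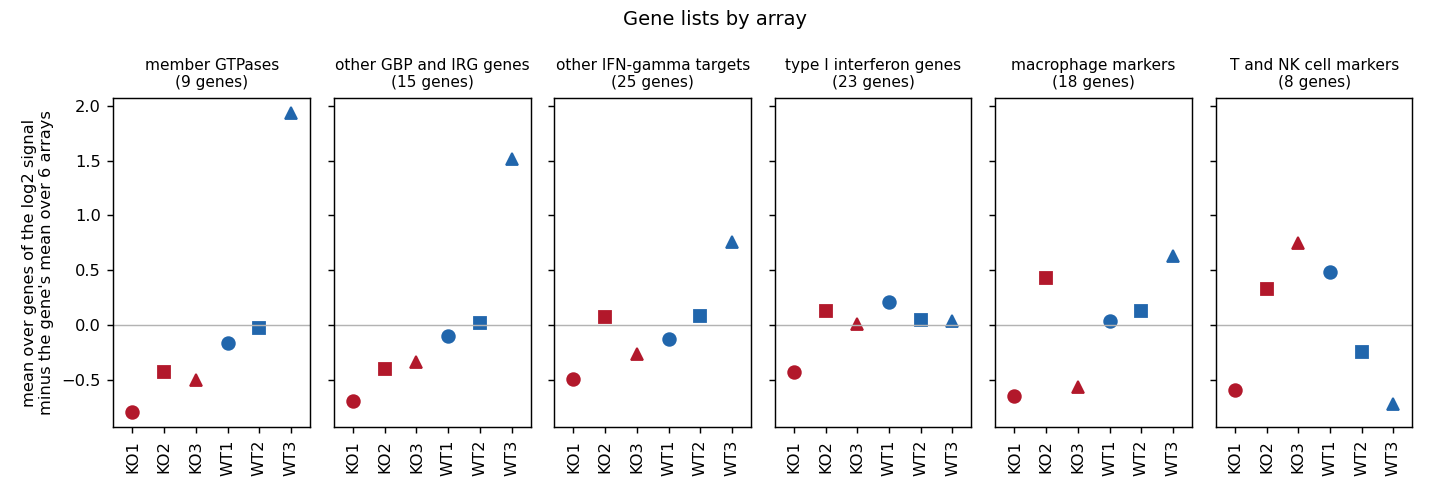
Mean over the genes of a list of the log2 signal minus the gene's own mean over the 6 arrays (y axis), for H19 knockout arrays (KO, red) and wild-type arrays (WT, blue), with 1 panel per list. Wild-type replicate 3 reaches 1.94 for the 9 GTPases and 1.51 for other family genes, lies at 0.04 for type I interferon genes and is the lowest array for T and NK cell markers.

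Gene by gene, the profile of Gbp3 over the 6 arrays was nearest to those of Sele, Acsbg2, Cd52, Noxa1 and an unnamed intergenic probe, with root mean square differences of 0.081 to 0.183 after each gene's mean was subtracted. Sele is an adhesion molecule of activated endothelium and Cd52 a surface glycoprotein of leukocytes. Sele read -4.66, -3.84 and -4.24 in knockout and -3.28, -3.47 and -2.58 in wild type. Of the 9 GTPases, the Gbp6 probe came at place 10 of 21882 genes, at 0.215, Gbp4 at place 17, Ifi47 at 26 and Gbp2 at 105. Irgm1 came at place 8025, and Irgm2, Iigp1 and Igtp came at place 20229 or later. This distance grows with the size of a gene's changes as well as with a difference in shape. Pearson correlations with Gbp3 over the 6 arrays were 0.81 for Irgm1 and Iigp1, 0.76 for Irgm2 and 0.72 for Igtp. They were 0.93 for Gbp2 and Ifi47 and 0.98 for Gbp4 and the Gbp6 probe. Among the 5 profiles nearest to the mean of the 9 were Tap1, with a difference of 0.134 and a Pearson correlation of 0.990 over 6 arrays, and Cd274, with 0.190 and 0.991. These likenesses are descriptions of 6 arrays that share the high replicate, and carry no test.

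Marker genes of the cells that such a fraction could hold are given beside the GTPases. Markers of cardiomyocytes had a median of -0.05 over 12 genes, -0.03 without wild-type replicate 3, and Myh6 at -0.23 (SE 0.14). Markers of macrophages and myeloid cells were lower in 18 of 18 genes that passed the filter, of 20 listed, against 63.7% of all genes. The median was -0.58 and no gene was called. Their summed level, on the linear scale relative to the 75th percentile, was 48.5, 90.8 and 54.0 in knockout and 71.0, 78.1 and 102 in wild type, so knockout replicate 2 exceeded all but wild-type replicate 3. The summed level of the 9 GTPases was 26.1, 28.9 and 28.8 in knockout and 32.8, 38.4 and 310 in wild type, a sum in which Igtp and Irgm2 weigh most. Gene by gene, knockout replicate 2 was the highest knockout array for Gbp2, Gbp3, Gbp4, the Gbp6 probe and Ifi47, as it was for the macrophage sum. It was likewise the highest for the sums of fibroblast, endothelial, smooth muscle and B cell markers, but not of cardiomyocyte or T and NK cell markers. For Igtp, Iigp1 and Irgm2 it was the lowest knockout array. Ctss and Fcer1g differed by -0.77 (SE 0.38) and -0.71 (SE 0.37), Csf1r by -0.29 (SE 0.29), with -0.49, -0.44 and -0.26 without wild-type replicate 3, and Cd163 was well above background on 0 of 6 arrays. The macrophage median was -0.45 without wild-type replicate 3. With arrays scaled to their median probe it was -0.16, with 12 of 18 lower, but the median of all genes was then 0.36, against -0.06 in the main setting. The part of these cells in the result was not tested.

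Markers of T and NK cells, the usual sources of interferon-gamma, had a median of 0.10 over the 8 of 14 genes that passed the filter. It was -0.10 without wild-type replicate 3, 0.35 without knockout replicate 1 and 0.50 without the filter on dim probes, with -1.01 on slide 1 and 0.75 on slide 2. Their summed level was 2.16, 3.32 and 4.30 in knockout and 3.87, 2.60 and 2.31 in wild type, so that wild-type replicate 3 was among the low arrays. Gzmb was well above background on 0 of 6 arrays, Cd3d and Cd8a on 2 and Cd8b1 on 1. Lck spread widely, at -3.13, -1.11 and 0.41 in knockout, against -2.96, -4.23 and -4.68 in wild type, and overlapped (difference 2.68, SE 0.89, adjusted p = 0.622, limma). It was well above background on 3 of 3 knockout arrays but 1 of 3 wild-type arrays, so the size of that difference is uncertain. B cell markers were near the limit of detection, with 2 of 6 genes passing the filter (median -0.39, and -0.76 without wild-type replicate 3) and Ms4a1 and Pax5 well above background on 0 of 6 arrays. Fibroblast markers were higher in 12 of 12 genes, with a median of 0.51 and none called, and were lowest on wild-type replicate 3, at a summed level of 177 against 243 to 355 on the other wild-type arrays and 271 to 542 on the knockout arrays. That direction was not shared by the slides, the median being -0.75 on slide 1 and 1.19 on slide 2. It was 0.27 without wild-type replicate 3, and 0.13 with 3 of 12 lower without knockout replicate 2. Endothelial markers had a median of 0.01 over 14 genes, with -0.78 on slide 1 and 0.41 on slide 2, and -0.21 with 12 of 14 lower without wild-type replicate 3. Markers of smooth muscle and pericytes had 0.03 over 9 genes, with -0.48 on slide 1, 0.20 on slide 2 and -0.11 without wild-type replicate 3. Averaged over each marker list after centring each gene, wild-type replicate 3 stood between -0.84 (fibroblasts) and 0.63 (macrophages), against 1.94 for the GTPases. The part of these cells in the result was likewise not tested.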

How the data were processed

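Total RNA of 6 cardiomyocyte fractions was hybridised to one-colour Agilent mouse arrays. Per the file headers, Agilent Feature Extraction 10.7.3.1 made the deposited spot intensity, which is background-subtracted and not normalized between arrays, and the mm9 coordinates. A table of values deposited by the authors gives each spot's intensity on a linear scale, not centred, with the ranks of the scanner output on each array (Spearman correlation 1). Array medians were 78 to 78.9 in it, against 64.1 to 98.9 in the scanner output, so the arrays had been brought to a common level in that table. The tool behind it: not given in the sources used here. No other column was used.

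Here the log2 intensity minus the array's 75th percentile (774 to 1152 units) was taken. Control and outlier spots were left out and spots of a probe averaged. The 29990 probes well above background on at least 3 arrays were kept, and each gene was taken from its brightest probe. Gene names follow RefSeq (GRCm38.p6 table), which matched 26425 probes by accession, 1370 through a probe of the same name, 2804 by symbol and 651 by synonym, while 24431 kept the file's name. Genotypes, grouped by the labels, were compared with limma 3.58.1 (lmFit, eBayes, R 4.3.3). Differences are knockout minus wild type, and p-values were adjusted by Benjamini-Hochberg over 21883 genes. Lists are described by counts and medians without a test. The 9 genes and all lists were chosen with earlier results of these data known, and the present Gbp6 was added to the list of other family genes after the names had been looked up. Named genes are the members, the other family genes, the core of the pathway, up to 4 genes by smallest p of each list, the 3 brightest markers, and the 5 genes nearest to Gbp3 and to the mean of the members; the text names a part of these. Genes picked by their gap on 1 array, Gm12185 and the type I genes picked by their reading on wild-type replicate 3 fall outside that rule. Results of 1 pathway gene are not reported here. The fit was tested on simulated data. Alternatives changed the background correction, scaling, filter, probe rule, covariates, variance prior, array weights, threshold and arrays used. The number of arrays limits the precision.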

Additional observations from a re-analysis of the deposited data

How the results depend on the processing

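No member was called at an adjusted p of 0.05 under any alternative that was run, and all 9 differences stayed below 0 in each of them except Igtp without wild-type replicate 3, at 0.029, and Igtp and Irgm2 on slide 1 alone, at 0.53 and 0.15, where 1 array a genotype leaves no test; the median of the 9 was -0.77 on slide 1 and -1.33 on slide 2. Leaving out 1 array at a time put Igtp between -2.26 and 0.029, and the cause was not tested. The median of the 9 was -1.18 with normexp, -1.21 with quantile normalization or the deposited values, -0.57 with array weights and -0.81 with arrays scaled to their median probe; relative to the median of all genes the last was -1.17, as in the main setting. Array weights were estimated gene by gene, since the default estimate did not converge, a choice made after seeing the data. Weights gave the lowest adjusted p of a member, 0.081 for Gbp3 (limma), whose adjusted p reached 1.0 when wild-type replicate 1 or 2 was left out. The 7 genes called over the whole array became 3 with quantile normalization, 3 with the deposited values, 1 without a filter, 1 with slide as a block, 118 with scaling to the median probe and 1737 at an unadjusted p under 0.05. Of these, 6 of 7 were lower in the knockout in the main setting, 1 of 3 with quantile normalization or the deposited values and 17 of 118 with median scaling. Leaving out 1 array at a time gave 1 to 10 calls, 10 of them without wild-type replicate 3, 4 without wild-type replicate 1 and 1 without any other. Deviations of samples with the same replicate number correlated at -0.22, -0.05 and 0.04, which does not settle whether these numbers pair the samples. With a replicate block 1 gene was called and the members' adjusted p-values were 0.480 to 0.739 (limma). The standard errors of all 9 were then smaller than in the main setting. With 3 arrays a genotype and 48.8% to 58.6% of spots well above background, small differences and dim genes such as Ifng are beyond what these arrays can resolve.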
